A study of Mus musculus with 4 samples.

Results

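The potassium channel genes were the 93 genes, of 35857 listed in every library, whose symbol begins with Kcn and continues with subfamily letters and a number, leaving out the noncoding and antisense loci that carry a Kcn name. Their transcripts were measured in glial progenitors, obtained from C57BL/6 mouse neural stem cells (embryonic brain, cerebral cortex) 24 hr after induction towards glia. There were 2 libraries of Qk_KO cells (genotype Qk-/-) and 2 libraries of control cells (genotype wild type). Qk encodes the RNA-binding protein Quaking, whose protein level is not among the values used here. The sources used here state neither how Qk was removed nor whether replicates were separate cultures, so p-values measure the spread between these libraries, which may be technical. The comparison asked how transcripts differed between Qk_KO and control in cells on the way to glia.

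Potassium channels let potassium ions leave or enter a cell down their gradient and so set its resting potential and shape its electrical signals. Inward rectifiers (Kir, genes Kcnj) and two-pore channels (K2P, genes Kcnk) carry current near rest, and astrocytes use them, above all Kir4.1, to hold a very negative potential and to clear potassium that neurons release. Voltage-gated channels (Kv, genes Kcna to Kcnd, Kcnq, Kcnh and the modifier genes Kcnf, Kcng, Kcns and Kcnv) open on depolarization and end action potentials in neurons, although glial progenitors also carry them. Calcium-, sodium- or pH-activated channels (KCa, genes Kcnma1, Kcnn, Kcnt and Kcnu1) and auxiliary subunits (Kcnab, Kcnip, Kcne, Kcnmb and the regulator Kcnrg) complete the family.

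Values are TPM, each gene's share of all transcripts scaled to a fixed total per library and corrected for transcript length. Read depth cannot be recovered from TPM and is unknown, so counting intervals are not printed. Qk itself stood at 36.1 and 43.7 TPM in the Qk_KO libraries, against 208 and 215 TPM in the control libraries, which is -2.38 on the log2 scale (SE 0.12; limma, Benjamini-Hochberg adjusted p = 0.00708). The Qk call was lost without control replicate 1 (adjusted p = 0.0554, limma) and without control replicate 2 (0.0772). Of 13260 genes averaging 1 TPM or more, 430 (3.24%) were called at an adjusted p under 0.05, 242 (1.83%) higher and 188 (1.42%) lower in Qk_KO. With a correction for transcript GC content, 337 genes were higher and 440 lower. Without control replicate 1 there were 10 calls over all genes, without control replicate 2 there were 4, without Qk_KO replicate 1 there were 60 and without Qk_KO replicate 2 there were 148. The values of both groups did not overlap for 61.1% of the genes tested. Stem cell genes were present throughout, with Sox2 at 239 and 208 TPM in Qk_KO and 234 and 195 TPM in control. The labels name the cells both neural stem cells and glial progenitors. The Qk_KO libraries also differed from each other. Xist stood at 0.04 TPM in Qk_KO replicate 1 and 62.5 TPM in replicate 2, against 62.2 and 57.6 TPM in control. The Y-linked gene Eif2s3y stood at 35.4 TPM in Qk_KO replicate 1 and was listed at 0 in the other 3 libraries, so Qk_KO replicate 1 may differ from them in the sex of its embryos. The part of sex in the channel values was not tested. Dlx2, a factor of GABAergic neurons, stood at 76.0 TPM in Qk_KO replicate 1 and 1.70 TPM in replicate 2.

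Among the 93 channel genes, 14 averaged at least 10 TPM over the 4 libraries, 8 lay between 5 and 10 TPM, 25 between 1 and 5 TPM, 40 above 0 and under 1 TPM, and 6 were listed at 0 in every library. The 47 genes averaging 1 TPM or more were tested, and 46 were not. The gene just inside that limit was Kcnn2, a small-conductance calcium-activated channel, at 1.3 and 1.13 TPM in Qk_KO and 1.23 and 0.44 TPM in control. Just outside lay Kcnt1, a sodium-activated channel, at 1.47 and 1.26 TPM in Qk_KO and 0.57 and 0.46 TPM in control. The order of levels was led by Kcnmb4, Kcnd3, Kcnj10 and Kcnip3 in both groups. Together, the 3 highest genes held 37.7% and 33.2% of all potassium channel TPM in Qk_KO and 44.6% and 42.3% in control. Within control, Kcnmb4 and Kcnd3 did not differ beyond the spread between libraries, since Kcnmb4 was at 138 and 93.4 TPM and Kcnd3 at 83.5 and 90.4 TPM. Further down the order of means, Kcnk1 was the 8th gene in Qk_KO and the 21st in control, and Kcnk2 the 6th in Qk_KO and the 11th in control.

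**Figure D1:**
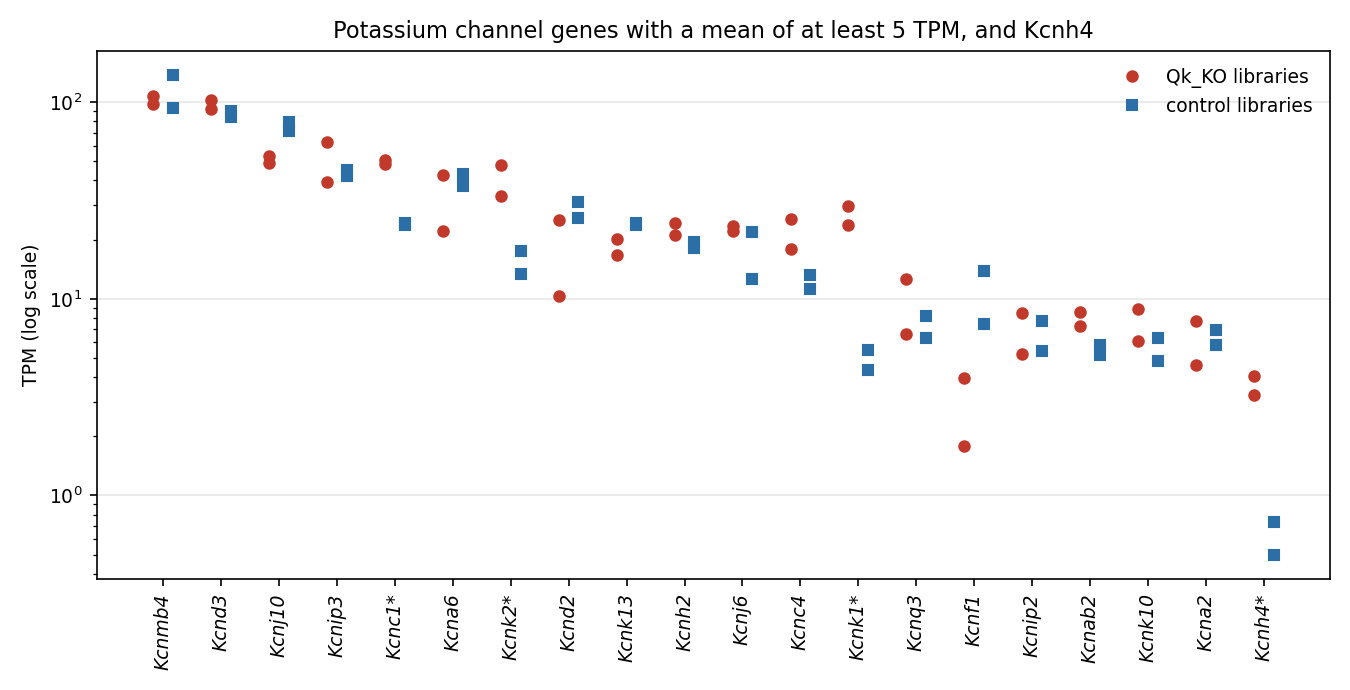
TPM on a log scale of selected potassium channel genes that averaged at least 5 TPM, and of Kcnh4, in each library (circles, Qk_KO; squares, control), ordered by mean. Stars mark the 4 genes called by limma, whose Qk_KO values all lie above their control values.

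Comparing Qk_KO with control gave 4 calls among the 47 channel genes tested, all higher in Qk_KO, and 43 genes missed the threshold (limma, Benjamini-Hochberg). That is 8.51% called, beside 3.24% of all genes. At an unadjusted p under 0.05, 10 of the 47 were higher and 5 lower, beside 15.8% of all genes tested higher and 12.6% lower (28.4% in all), so these counts are near the background. Of the genes that rose, 2 encode two-pore channels, Kcnk1 and Kcnk2, and 2 encode voltage-gated channels, Kcnc1 and Kcnh4. The median log2 fold change over the 47 genes was 0.25, beside 0.04 over all genes tested, and the groups did not overlap for 30 of the 47 (63.8%), beside 61.1% of all genes.

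Kcnk1 encodes TWIK-1, a weakly conducting two-pore channel found in astrocytes and many other cells. It stood at 29.7 and 23.9 TPM in Qk_KO and at 4.35 and 5.51 TPM in control. Both Qk_KO libraries were thus far above both control libraries, 26.8 ± 4.14 against 4.93 ± 0.820 TPM (SD, n = 2 each), a ratio of 5.43. The log2 fold change was 2.23 (SE 0.18; limma, Benjamini-Hochberg adjusted p = 0.0210). The call was lost without control replicate 1 (adjusted p = 0.0843, limma) and without control replicate 2 (0.137), with log2 fold changes of 2.09 and 2.37. Over 15 alternative settings the adjusted p ranged from 0.0120 to 0.137 and 12 kept the call.

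Kcnk2 encodes TREK-1, a two-pore channel opened by membrane stretch, lipids and warmth. It was at 48.0 and 33.2 TPM in Qk_KO and at 17.6 and 13.4 TPM in control. The groups lay apart, at 40.6 ± 10.4 and 15.5 ± 2.92 TPM (SD, n = 2 each), a log2 difference of 1.32 (SE 0.22; limma, Benjamini-Hochberg adjusted p = 0.0463). Kcnc1 encodes Kv3.1, a fast voltage-gated channel of neurons that fire at high rates. It was at 48.5 and 50.7 TPM in Qk_KO and at 24.3 and 23.8 TPM in control, the tightest replicates among the 4 genes. Its means were 49.6 ± 1.58 and 24.1 ± 0.354 TPM (SD, n = 2 each), and the log2 fold change was 1.01 (SE 0.10; limma, Benjamini-Hochberg adjusted p = 0.0261). Kcnh4, of the Kv12 branch of the ether-a-go-go channels, was at 3.23 and 4.03 TPM in Qk_KO and at 0.73 and 0.50 TPM in control. This is a low level in both groups, a log2 difference of 1.52 (SE 0.23; limma, Benjamini-Hochberg adjusted p = 0.0426), which the added pseudocount of 1 TPM makes smaller than the 5.90-fold ratio of mean TPM.

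The calls of Kcnk2, Kcnc1 and Kcnh4 were each lost when any 1 of the 4 libraries was left out. Their adjusted p (limma, Benjamini-Hochberg) then lay between 0.0540 and 0.271 for Kcnk2, 0.0593 and 0.205 for Kcnc1, and 0.0747 and 0.257 for Kcnh4. Over all settings the lowest and highest adjusted p were 0.0150 and 0.271 for Kcnk2, 0.0200 and 0.205 for Kcnc1, and 0.0300 and 0.257 for Kcnh4. Without limma's trend Kcnk1 kept its call and the other 3 lost theirs. On GRCm38, Kcnk1 spans 125995170 to 126030685 on the plus strand of chromosome 8, Kcnk2 189207930 to 189402273 on the minus strand of chromosome 1, Kcnc1 46396497 to 46438704 on the plus strand of chromosome 7, and Kcnh4 100740376 to 100759942 on the minus strand of chromosome 11 (GENCODE M21). An exon of Kcnk1 overlaps Gm45875 and one of Kcnk2 overlaps A430027H14Rik on the opposite strand, and without a stated strand setting reads there cannot be assigned to one of the pair.

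**Figure D2:**
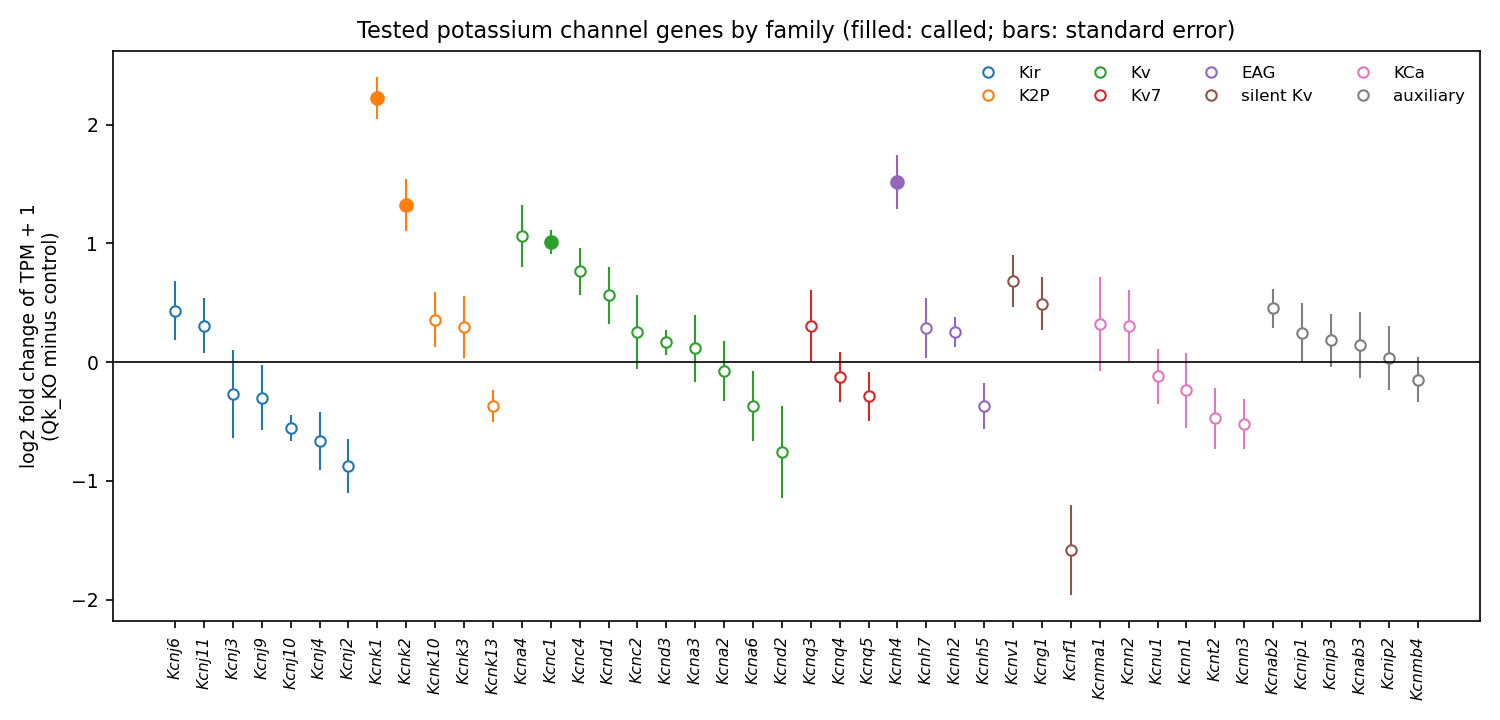
Log2 fold change of TPM + 1, Qk_KO minus control, with its standard error, for most of the potassium channel genes tested, grouped by family and ordered within each. Filled points mark the 4 called genes, Kcnk1, Kcnk2, Kcnc1 and Kcnh4.

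The promoters of the 4 genes that rose, and of Kcnj10 for contrast, are shown to let their makeup be compared. Each is 300 bases, 250 before and 50 after a RefSeq transcription start (GRCm38.p6), 5′ to 3′, with GC boxes (GGGCGG on either strand) in capitals. Kcnk2 has 4 listed starts and the window at the 5′ end of the gene is given. Its other windows hold 3, 33 and 33 CpG dinucleotides, and 1 of them holds a GC box.
Kcnk1 (chr8:125994852-125995151, plus strand): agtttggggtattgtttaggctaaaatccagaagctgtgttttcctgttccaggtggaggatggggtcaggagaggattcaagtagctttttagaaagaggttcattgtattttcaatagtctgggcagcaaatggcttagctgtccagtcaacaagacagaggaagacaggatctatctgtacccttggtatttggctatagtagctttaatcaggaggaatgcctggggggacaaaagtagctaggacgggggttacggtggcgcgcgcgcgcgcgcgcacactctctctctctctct
Kcnk2 (chr1:189402224-189402523, minus strand): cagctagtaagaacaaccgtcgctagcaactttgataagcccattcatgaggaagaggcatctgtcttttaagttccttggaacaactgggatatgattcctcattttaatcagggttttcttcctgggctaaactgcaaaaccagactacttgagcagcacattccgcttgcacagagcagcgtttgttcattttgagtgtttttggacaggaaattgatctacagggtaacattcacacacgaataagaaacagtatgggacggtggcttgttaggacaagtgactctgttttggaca
Kcnc1 (chr7:46396218-46396517, plus strand): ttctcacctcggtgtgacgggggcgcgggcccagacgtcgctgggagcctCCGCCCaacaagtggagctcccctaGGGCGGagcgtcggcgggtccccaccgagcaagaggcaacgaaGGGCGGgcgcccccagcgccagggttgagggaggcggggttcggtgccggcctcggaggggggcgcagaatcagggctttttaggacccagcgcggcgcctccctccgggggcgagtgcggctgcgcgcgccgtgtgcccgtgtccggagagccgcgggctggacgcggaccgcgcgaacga
Kcnh4 (chr11:100759729-100760028, minus strand): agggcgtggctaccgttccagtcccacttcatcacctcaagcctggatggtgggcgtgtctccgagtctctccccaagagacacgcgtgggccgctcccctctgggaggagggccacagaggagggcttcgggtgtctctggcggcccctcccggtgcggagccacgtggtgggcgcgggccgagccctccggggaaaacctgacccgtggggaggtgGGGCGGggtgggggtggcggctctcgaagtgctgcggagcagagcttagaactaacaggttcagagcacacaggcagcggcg
Kcnj10 (chr1:172340960-172341259, plus strand): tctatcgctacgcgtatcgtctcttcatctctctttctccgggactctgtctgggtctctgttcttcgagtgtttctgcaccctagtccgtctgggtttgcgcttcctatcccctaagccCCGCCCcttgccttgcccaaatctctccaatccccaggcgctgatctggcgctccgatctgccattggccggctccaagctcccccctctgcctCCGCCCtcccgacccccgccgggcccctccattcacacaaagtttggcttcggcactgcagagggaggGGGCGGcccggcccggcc
These windows hold 0 GC boxes in Kcnk1, 0 in Kcnk2, 3 in Kcnc1, 1 in Kcnh4 and 3 in Kcnj10, and 10, 6, 41, 23 and 21 CpG dinucleotides in the same order. The Kcnk1 window ends at 125995151, before the GENCODE M21 start of the gene at 125995170, so the annotations differ on its start. Over the 13390 promoters of all genes tested, 63.3% held a GC box and the median was 21 CpG. RefSeq promoters matched 34 of the 47 channel genes tested, and 26 of their 50 windows held a GC box. The genes that rose thus differ in promoter letters from one another, and a match or its absence is a description of this window only.

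Quaking binds RNA through the hexamers ACUAAC and ACUAAU, often in 3′ untranslated regions. In the longest annotated 3′ untranslated region of each gene (GENCODE M21), 23 of the 47 tested channel genes (48.9%) held at least 1 such hexamer on the transcript strand, beside 35.3% of 12274 genes tested. These regions were also longer, with a median of 2293 bases beside 1259, and per kilobase the channel genes held 0.306 hexamers beside 0.341 over all genes. Of the 4 genes that rose, Kcnc1 held 2 hexamers, and Kcnk1, Kcnk2 and Kcnh4 held 0 in regions of 934, 1860 and 556 bases. The sites of Kcnc1 and of the abundant Kcnj10, Kcnd3 and Kcnmb4 are shown as 30 bases of DNA sequence each, with the hexamer in capitals (GRCm38).
Kcnc1 first site (chr7:46428616-46428645, plus strand): ctctgacgggctACTAACccagtggtgggc
Kcnc1 second site (chr7:46431907-46431936, plus strand): tctttctccaccACTAATctccctttctct
Kcnj10 (chr1:172372575-172372604, plus strand): agggcaagctttACTAACagccacggctga
Kcnd3 (chr3:105672825-105672854, plus strand): ctcaagctcaggACTAACtgtacagaacct
Kcnmb4 (chr10:116417980-116418009, minus strand): ctctatggagtgACTAACtgtttgggaaac
Binding was not measured here, and a match describes letters only. Of the genes shown, Kcnc1 was called higher, and Kcnj10, Kcnd3 and Kcnmb4 were not called.

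Summed over its 15 genes, the Kir family was at 78.8 and 89.9996 TPM in Qk_KO and 116 and 98.5 TPM in control. The 14 two-pore genes summed to 112 and 87.6 TPM in Qk_KO and 57.3 and 53.1 TPM in control. Both sums lay apart between the groups, in opposite directions, but few genes carried them. Without Kcnj10 the Kir sum was 30.1 and 36.7 TPM in Qk_KO and 37.0 and 27.4 TPM in control, with overlap. Without Kcnk1 and Kcnk2 the two-pore sum was 34.2 and 30.5 TPM in Qk_KO and 35.4 and 34.2 TPM in control. No Kir gene was called, and the difference between the families was not tested. Joined, the 29 genes summed to 191 and 178 TPM in Qk_KO and 174 and 152 TPM in control, so the total moved less than its parts. Two-pore transcripts made up 58.7% and 49.3% of that pool in Qk_KO and 33.0% and 35.0% in control. Kcnk1 and Kcnk2 alone made up 40.7% and 32.1% in Qk_KO, against 12.6% and 12.5% in control.

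**Figure D3:**
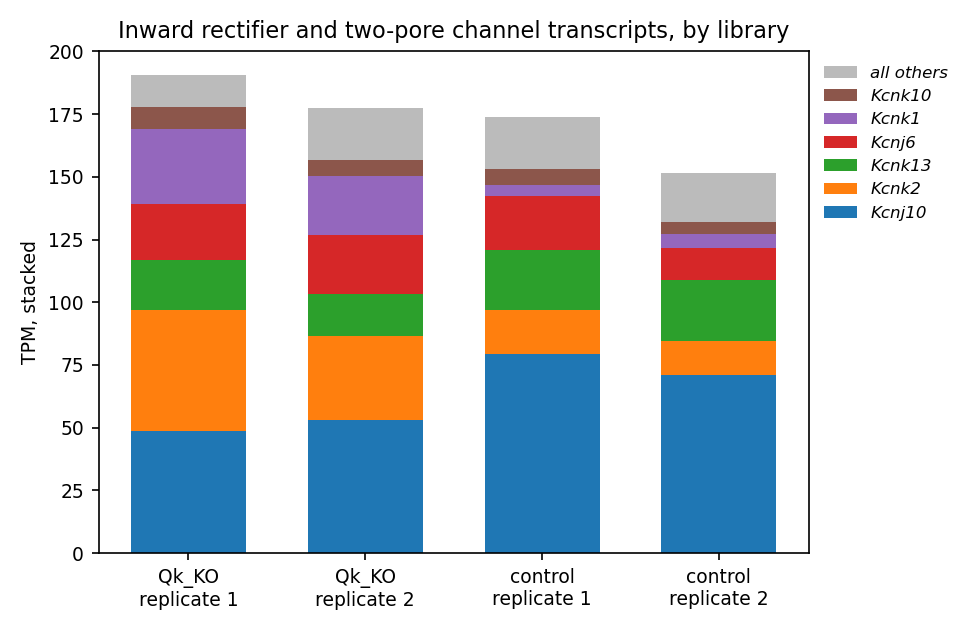
Stacked TPM of the 29 inward rectifier and two-pore channel genes in each library, with the 6 most abundant genes in colour. Kcnj10 is the lowest segment and is smaller in both Qk_KO libraries, while the segments of Kcnk2 and Kcnk1 are larger.

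Of the 12 tested Kir and two-pore genes, 2 rose, 0 fell and 10 did not pass (limma, Benjamini-Hochberg), beside 3.24% of all genes called. At an unadjusted p under 0.05, 2 of the 12 were higher and 4 lower, beside 15.8% and 12.6% of all genes tested. The median log2 fold change of the 12 genes was 0.01, and it was -0.01 with median-ratio scaling and -0.08 with quantile normalization. It was 0.40 when tested genes had to average 5 TPM, 0.18 without Qk_KO replicate 1, -0.13 without Qk_KO replicate 2, 0.04 without control replicate 1 and -0.14 without control replicate 2, so its sign changed with the setting. Kcnj10 encodes Kir4.1, the main inward rectifier of astrocytes and oligodendrocyte precursors, and was the third most abundant channel gene. It was at 48.7 and 53.3 TPM in Qk_KO and at 79.4 and 71.1 TPM in control. The groups lay apart, at 51.0 ± 3.19 and 75.3 ± 5.86 TPM (SD, n = 2 each), with a log2 fold change of -0.55 (SE 0.11) that did not pass (limma, Benjamini-Hochberg adjusted p = 0.0553). It passed when tested genes had to average 5 TPM (limma adjusted p = 0.04996), with small RNA genes left out (0.0460) and with the GC trend removed (0.0416), and over all settings the adjusted p lay between 0.0416 and 0.261. The astrocyte markers summed to 820 and 728 TPM in Qk_KO and 912 and 996 TPM in control. Among 11 tested, 1 was called higher (Aqp4) and 1 lower (Slc1a3), beside 1.83% and 1.42% of all genes. Without Slc1a3 the sum was 703 and 578 TPM in Qk_KO and 574 and 561 TPM in control. Within that remainder Aldh1l1 was at 229 and 108 TPM in Qk_KO and 52.0 and 32.9 TPM in control. The direction of either sum thus rests on few genes and does not describe each marker. Aqp4, the water channel of astrocytes, was at 29.3 and 35.1 TPM in Qk_KO and 3.83 and 4.88 TPM in control. Of the 11 astrocyte markers tested, 2 were higher and 4 lower at an unadjusted p under 0.05, beside 15.8% and 12.6% of all genes. Their median log2 fold change was -0.07. The oligodendrocyte lineage markers summed to 963 and 1167 TPM in Qk_KO and 1246 and 1055 TPM in control. Among 9 tested, 0 were called higher and 1 lower (Pdgfra), beside 1.83% and 1.42% of all genes. At an unadjusted p under 0.05, 0 were higher and 5 lower, beside 15.8% and 12.6% of all genes tested. The median log2 fold change of these markers was -0.74. Without Olig1 and Olig2, which hold most of the sum, it was 92.9 and 129 TPM in Qk_KO and 185 and 247 TPM in control. The part of these markers in the Kir and two-pore values was not tested, and in bulk RNA fewer cells of a type and less RNA per cell cannot be told apart. Kcnj10 made up 25.6% and 30.0% of the Kir and two-pore pool in Qk_KO and 45.7% and 46.9% in control. On GRCm38 it spans 172341210 to 172374085 on the plus strand of chromosome 1.

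Kcnj16 encodes Kir5.1, which joins Kir4.1 in glial channels, and stayed low in all libraries, at 0.47 and 0.85 TPM in Qk_KO and 0.62 and 0.89 TPM in control. Classical strong rectifiers were also low. Kcnj2 (Kir2.1) was at 0.54 and 0.66 TPM in Qk_KO and 1.90 and 1.96 TPM in control, without overlap (log2 fold change -0.87 ± 0.23 SE; limma adjusted p = 0.0818). Kcnj4 (Kir2.3) was at 1.59 and 2.34 TPM in Qk_KO and 3.08 and 4.32 TPM in control, also apart and also not called. The G protein-gated rectifier Kcnj6 (GIRK2) was at 22.2 and 23.4 TPM in Qk_KO and 21.8 and 12.6 TPM in control, where control replicate 1 nearly reached the Qk_KO values. Its log2 fold change of 0.43 was 0.06 without control replicate 2 and 0.81 without control replicate 1. Kcnj8, the vascular rectifier Kir6.1 of pericytes, was at 0.07 and 0 TPM in Qk_KO and 0.03 and 0.06 TPM in control.

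Among the other two-pore genes, Kcnk13 (THIK-1), known from microglia, was at 20.2 and 16.7 TPM in Qk_KO and 23.7 and 24.4 TPM in control, apart but not called (log2 fold change -0.37 ± 0.14 SE; limma adjusted p = 0.151). The microglia and macrophage markers summed to 24.2 and 16.1 TPM in Qk_KO and 51.5 and 42.3 TPM in control. Among 7 tested, 0 were called by limma, beside 3.24% of all genes. At an unadjusted p under 0.05, 6 of the 7 were lower, beside 12.6% of all genes tested. The part of these markers in the Kcnk13 values was not tested. Kcnk10 (TREK-2), the closest relative of Kcnk2, was at 8.91 and 6.08 TPM in Qk_KO and 6.35 and 4.82 TPM in control, and these values overlapped. Kcnk3 (TASK-1), an acid-sensitive leak channel, was at 3.32 and 5.76 TPM in Qk_KO and 3.24 and 3.56 TPM in control. Of the 14, Kcnk15, Kcnk16 and Kcnk18 were listed at 0 in every library.

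Voltage-gated channels were the largest group, with 40 genes, of which 23 were tested. Of these 2 rose, Kcnc1 and Kcnh4, 0 fell and 21 did not pass (limma, Benjamini-Hochberg), beside 3.24% of all genes called. At an unadjusted p under 0.05, 7 were higher and 1 was lower, beside 15.8% and 12.6% of all genes tested. Their median log2 fold change was 0.29, with 16 values above 0 and 7 below, beside 0.04 over all genes tested. The median was 0.49 without Qk_KO replicate 1 and 0.18 without Qk_KO replicate 2. With 2 of 12 genes called in the Kir and two-pore group and 2 of 23 among voltage-gated channels, both groups had calls, and the difference between their counts was not tested. The groups did not overlap for 18 of the 23 genes, 13 higher and 5 lower in Qk_KO, and for 8 of the 12 Kir and two-pore genes, 4 higher and 4 lower, beside 61.1% of all genes tested.

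The neuron markers summed to 906 and 877 TPM in Qk_KO and 623 and 399 TPM in control. Of the 12 tested, 2 were called higher (Snap25 and Ina) and 0 lower, beside 1.83% and 1.42% of all genes. By unadjusted p under 0.05, 4 of the 12 were higher and 0 lower, beside 15.8% and 12.6% of all genes. The groups lay apart for 5 of the 12, all higher in Qk_KO, beside 61.1% of all genes tested. Tubb3, the most abundant on average, was at 512 and 383 TPM in Qk_KO and 275 and 126 TPM in control, not called. Map2, the next, was at 133 and 149 TPM in Qk_KO and 143 and 135 TPM in control, with overlap. The GABAergic neuron markers summed to 186 and 42.0 TPM in Qk_KO and 64.8 and 35.3 TPM in control. Among them 0 of 6 tested were called, beside 3.24% of all genes. The part of neurons in the voltage-gated channel values was not tested.

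Kcnc4 (Kv3.4), an inactivating relative of Kcnc1, was at 17.9 and 25.5 TPM in Qk_KO and 13.2 and 11.2 TPM in control, and did not pass (log2 fold change 0.76 ± 0.20 SE; limma adjusted p = 0.0829). Both Qk_KO values of Kcnc4 lay above both control values.

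Silent subunits do not form channels alone but change the gating of Kv2 channels. Kcnf1 (Kv5.1) was at 1.79 and 3.96 TPM in Qk_KO and 7.41 and 13.8 TPM in control. Its log2 fold change of -1.58 (SE 0.38) was the lowest of the 47 genes but did not pass (limma, Benjamini-Hochberg adjusted p = 0.0729). Kcnv1 (Kv8.1) and Kcng1 (Kv6.1) lay the other way, Kcnv1 at 1.92 and 2.30 TPM in Qk_KO and 0.93 and 0.94 TPM in control, and Kcng1 at 1.58 and 1.52 TPM in Qk_KO and 0.78 and 0.85 TPM in control. Neither was called.

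Kcnq3 encodes a Kv7 subunit of channels that restrain repetitive firing. It was at 6.59 and 12.6 TPM in Qk_KO and 6.35 and 8.19 TPM in control, with overlap.

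Kv4 channels carry fast transient current in neurons and glial progenitors, and Kcnd3 (Kv4.3) was the most abundant pore gene of all. It was at 92.7 and 103 TPM in Qk_KO and 83.5 and 90.4 TPM in control, a log2 difference of 0.17 (SE 0.10; limma adjusted p = 0.339). Kcnd2 (Kv4.2) was at 10.3 and 25.3 TPM in Qk_KO and 31.0 and 25.7 TPM in control, so that Qk_KO replicate 2 stood next to the controls and replicate 1 far below. Its log2 fold change of -0.76 was -1.36 without Qk_KO replicate 2 and -0.15 without Qk_KO replicate 1. Kcnip3, a calcium-binding subunit of Kv4 channels that also acts as a transcriptional repressor, was at 39.2 and 62.6 TPM in Qk_KO and 45.1 and 42.1 TPM in control.

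Of the Shaker-type genes, Kcna6 (Kv1.6) was at 22.2 and 42.7 TPM in Qk_KO and 43.1 and 37.3 TPM in control. Kcna2 (Kv1.2) was at 4.59 and 7.69 TPM in Qk_KO and 5.80 and 6.93 TPM in control, and Kcna3 (Kv1.3), a channel of immune cells and proliferating glial precursors, at 3.24 and 6.24 TPM in Qk_KO and 4.13 and 4.10 TPM in control. Values of these 3 genes overlapped between the groups. Kcna4 (Kv1.4) was at 3.56 and 6.03 TPM in Qk_KO and 1.70 and 1.72 TPM in control, apart but not called (log2 fold change 1.06 ± 0.26 SE; limma adjusted p = 0.0751). Kcna1 (Kv1.1), of axons, was at 0.28 and 0.77 TPM in Qk_KO and 0.84 and 0.52 TPM in control. Kcnh2 (HERG) of the ether-a-go-go family was at 21.2 and 24.4 TPM in Qk_KO and 19.6 and 18.2 TPM in control, and its log2 fold change of 0.26 (SE 0.13) did not pass.

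Differences between the Qk_KO libraries ran through much of the family. Qk_KO replicate 2 was higher than replicate 1 for 21 of the 23 tested voltage-gated genes (91.3%) and for 38 of the 47 tested channel genes (80.9%), beside 51.0% of all genes tested. These genes share 2 libraries, so the shares are descriptions. Summed TPM of the 17 Kv1 to Kv4 genes was 234 and 307 in Qk_KO and 234 and 225 in control, so that Qk_KO replicate 1 was level with control replicate 1. The 5 Kv7 genes summed to 21.7 and 33.8 TPM in Qk_KO and 15.6 and 15.9 TPM in control. Of the 4 tested, 2 had a log2 fold change above 0 and 2 below, with a median of 0.09, so the sum does not describe each gene.

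**Figure D4:**
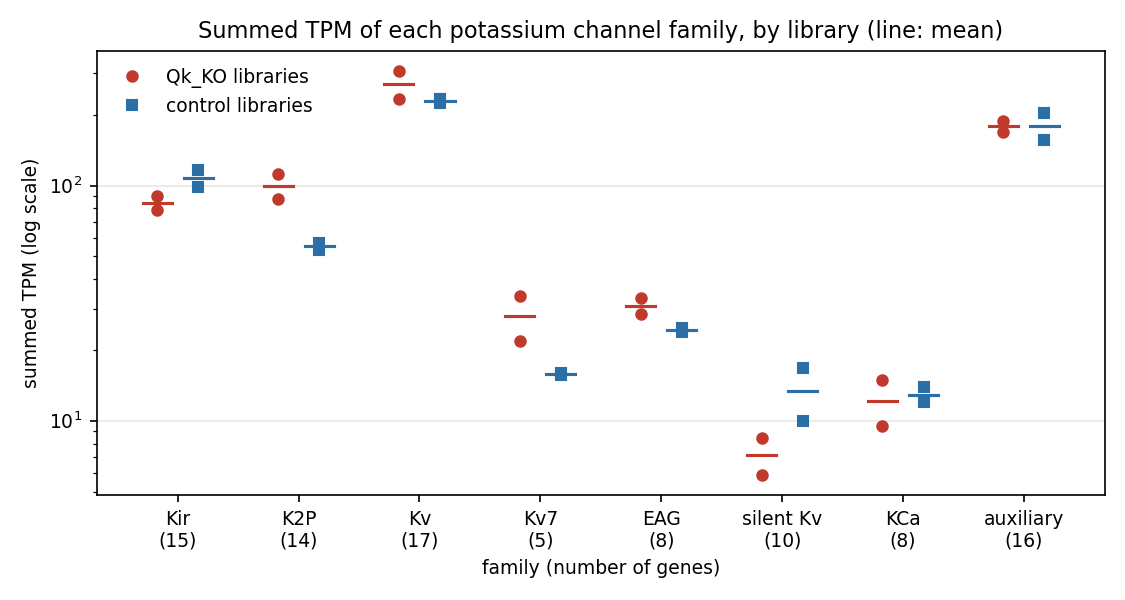
Summed TPM on a log scale of each potassium channel family in each library (circles, Qk_KO; squares, control; lines, group means), with the number of genes in each family. The two-pore, Kv7 and ether-a-go-go sums of both Qk_KO libraries lie above both control libraries, and the Kir and silent Kv sums lie below. Kcnf1 held most of the silent Kv sum in control, at 7.41 and 13.8 of 10.0 and 16.8 TPM. Of 3 tested silent Kv genes, 2 had a log2 fold change above 0 and 1 below (median 0.49). Of 4 tested Kv7 genes, 2 lay above 0 and 2 below (median 0.09).

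Calcium-, sodium- and pH-activated channels were scarce. Of the 6 tested, 0 were called by limma and 0 had an unadjusted p under 0.05, beside 3.24% and 28.4% of all genes tested. The median log2 fold change of the 6 was -0.18. Kcnn1 (SK1) was the most abundant, at 1.83 and 3.92 TPM in Qk_KO and 2.95 and 3.90 TPM in control. Kcnma1, the pore of the large-conductance BK channel, was at 1.34 and 3.9999 TPM in Qk_KO and 1.48 and 2.02 TPM in control. Kcnn4, the calcium-activated channel of immune cells and microglia, was at 0.15 and 0.18 TPM in Qk_KO and 0.27 and 0.33 TPM in control.

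Auxiliary subunits, by contrast, included the most abundant member of the whole family, and 0 of 6 tested were called, beside 3.24% of all genes. Of the 6, 1 had an unadjusted p under 0.05, that of Kcnab2, beside 28.4% of all genes tested. Kcnmb4, the neuronal beta subunit of BK channels, was at 107 and 97.7 TPM in Qk_KO and 138 and 93.4 TPM in control, with overlapping groups and a log2 difference of -0.15 (SE 0.19; limma adjusted p = 0.645). Its mean over all libraries was 109 TPM, against 2.21 TPM for its pore gene Kcnma1, both per transcript length. Exons of Kcnmb4 overlap Kcnmb4os1 and Kcnmb4os2 on the opposite strand, and those of Kcnd3 overlap Kcnd3os. Kcnip2, another Kv4 subunit, was at 5.21 and 8.50 TPM in Qk_KO and 5.44 and 7.69 TPM in control. Kcnab2, a cytoplasmic beta subunit of Kv1 channels, was at 7.27 and 8.53 TPM in Qk_KO and 5.81 and 5.16 TPM in control, apart but not called (log2 fold change 0.45 ± 0.16 SE; limma adjusted p = 0.147).

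Genes that work with potassium channels were taken from 9 lists of 62 genes, of which 49 were tested. Of these 1 rose, 1 fell and 47 did not pass, or 4.08% called beside 3.24% of all genes, and 12 were higher and 6 lower at an unadjusted p under 0.05, which 28.4% of all genes reached. In the list of the sodium-potassium pump, which rebuilds the potassium gradient, the most abundant gene was Atp1b2, the glial beta subunit, at 554 and 639 TPM in Qk_KO and 753 and 798 TPM in control, not called (adjusted p = 0.0962 by limma).

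In the list of the complex that anchors Kir4.1 and other channels at glial membranes, the most abundant gene was Dag1, dystroglycan, at 157 and 142 TPM in Qk_KO and 156 and 163 TPM in control.

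The other 7 lists had 0 genes called by limma. Their counts at an unadjusted p under 0.05 stand beside 28.4% of all genes tested, 15.8% higher and 12.6% lower. Hcn2, a pacemaker channel opened by hyperpolarization, was at 13.5 and 19.3 TPM in Qk_KO and 7.20 and 7.29 TPM in control (log2 fold change 1.06, adjusted p = 0.0513 by limma), and of the 4 genes tested in its list 2 had an unadjusted p under 0.05. Hcn3 was the most abundant of them, at 17.02 and 19.0 TPM in Qk_KO and 14.4 and 11.0 TPM in control. Of 5 cation-chloride cotransporters 3 were higher and 2 lower at an unadjusted p under 0.05, led in level by Slc12a4 at 73.2 and 81.0 TPM in Qk_KO and 92.2 and 98.1 TPM in control. Among 12 genes that cluster Kv channels on axons, Lgi2 was higher and Dlg1 lower at an unadjusted p under 0.05. The most abundant of that list was Dlg4 (PSD-95), at 140 and 193 TPM in Qk_KO and 185 and 163 TPM in control, with overlap. Amigo1 was the only one of 5 Kv4 and Kv2 partners with an unadjusted p under 0.05, and the most abundant was Dpp6, at 19.7 and 29.9 TPM in Qk_KO and 18.4 and 19.4 TPM in control. Lrrc55 was the only one of 2 tested BK partners, and the most abundant was Lingo1, at 37.9 and 52.3 TPM in Qk_KO and 38.2 and 43.1 TPM in control. Of 4 intracellular potassium channels it was Tmem38a, also the most abundant, at 77.8 and 78.4 TPM in Qk_KO and 64.2 and 62.8 TPM in control. Neither receptor of ATP-sensitive channels was tested, and Abcc8 was at 0.14 and 0.24 TPM in Qk_KO and 0.45 and 0.13 TPM in control.

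Other cell type markers were summed in the same libraries. The stem cell and radial glia markers summed to 6544 and 6345 TPM in Qk_KO and 6181 and 5917 TPM in control. Among 10 tested, 1 was called higher (Pax6) and 0 lower, beside 1.83% and 1.42% of all genes. Endothelial markers summed to 8.38 and 7.30 TPM in Qk_KO and 6.33 and 7.68 TPM in control, and ependymal markers to 21.5 and 17.4 TPM in Qk_KO and 19.6 and 17.2 TPM in control, with 0 called in either. Of the pericyte and smooth muscle markers Higd1b was listed at 0 in every library. Abcc9 was at 0 in both Qk_KO libraries and at only 0.01 and 0.03 TPM in control. Acta2 of contractile cells, however, was at 3484 and 1604 TPM in Qk_KO and 1289 and 1130 TPM in control. That list summed to 3523 and 1631 TPM in Qk_KO, against 1307 and 1146 TPM in control, 0 of 3 called. The part of these markers in the potassium channel results was not tested.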

How the data were processed

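PolyA RNA was sequenced with Ion Proton chemistry, per the labels' protocols. Each library has 1 deposited table of TPM per gene. The submitters' processing notes list RSEM 1.3.0, STAR 2.4.1d, GRCm38.p4 and mm10, while the annotation, strand setting and depth were not given in the sources used. TPM are shares of a total, so abundant genes affect all others, and the precision given is the spread between libraries.

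All 4 libraries entered 1 fit on log2(TPM + 1), which understates fold changes of low genes. The 13260 genes averaging 1 TPM or more entered the comparison of Qk_KO with control in limma 3.58.1 in R 4.3.3 (mean-variance trend, two-sided, Benjamini-Hochberg over all genes tested, threshold 0.05, 5.57 degrees of freedom). The fit was tested on simulated data. An exact permutation test of 2 against 2 libraries cannot go below p = 0.333. "Called" means an adjusted p under 0.05, and groups lie apart when both values of one exceed both of the other.

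Channel genes were matched by symbol and sorted into families. The members and lists were chosen with earlier results of these data known. Named were Qk, every called channel gene, those averaging 5 TPM or more, the highest of each family, 14 fixed genes, and of the partner lists every called and the highest gene. Kcnj2, Kcnj4, Kcnk3, Kcna4, Kcnv1, Kcng1, Kcnma1, Hcn2, Lgi2, Dlg1, Amigo1 and Lrrc55 were named after their values were seen, as were the marker genes given singly. The same holds for Kcnn2, Kcnt1, Kcnk15, Kcnk16 and Kcnk18. Some genes of the rule are not reported here, nor drawn gene by gene, though they count in totals. Positions and 3′ untranslated regions came from GENCODE M21 (GRCm38), where all 47 tested channel genes matched, and promoters from RefSeq (GRCm38.p6). Alternatives were pseudocounts, filters, scalings, small RNA genes left out, a GC correction, limma settings, a replicate block and each library left out. Figures used matplotlib 3.10.9 in Python 3.11.15.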

Additional observations from a re-analysis of the deposited data

How the results depend on the processing

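All 4 called potassium channel genes stayed higher in Qk_KO under every setting that tested them, but their calls depended on the setting. Kcnh4, with a mean of 2.12 TPM, was not tested when genes had to average 5 TPM. Without a filter on low genes, where 21835 genes above 0 TPM were tested, 0 channel genes and 0 genes in all passed in limma, although 4327 had an unadjusted p under 0.05, and Qk (log2 fold change -2.38) lost its call (adjusted p = 0.108). Over all genes there were 649 calls when genes had to average 5 TPM, 769 with small RNA genes left out, 777 with the GC trend removed (43.4% of them higher, against 56.3% as reported) and 41 without limma's trend, where 1 channel gene, Kcnk1, was called. The cause of these changes was not tested. Leaving out each library in turn gave 4 to 148 calls over all genes, 0 to 1 channel genes called, and log2 fold changes of Qk between -2.52 and -2.25. Leaving out a library leaves a group with 1 library that is assumed to vary like the other. The median log2 fold change of the Kir and two-pore genes was 0.40 when genes had to average 5 TPM, where fewer genes were tested. That of the voltage-gated genes was 0.061 with no filter and 0.18 to 0.49 with each library left out. Replicate numbers are shared between the groups but nothing says they pair libraries, and deviations of same-numbered libraries from their group means correlated at 0.114 across genes. With the replicate block there were 1278 calls over all genes and 7 channel genes, 6 higher and 1 lower, among them Kcna4 (higher) and Kcnf1 (lower, adjusted p = 0.0169 in limma). For the named genes, 480 results kept their side of the threshold, 33 lost a call and 9 gained one, and 0 reversed among called genes. Depth is unknown and groups of 2 libraries limit what can be called.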
